A study of Mus musculus with 24 samples.

Results

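Transcripts of 10 monocyte and macrophage genes were followed in mouse blood: Csf1r, Cx3cr1, Ccr2, Cd14, Itgam, Adgre1, Lyz1, Lyz2, Nr4a1 and Treml4. The genes were chosen by name, and every probe whose gene name matched one of them was used. The 10 genes had 17 probes, 3 each for Csf1r, Cx3cr1 and Itgam, 2 for Adgre1 and 1 for each of the others. All 10 passed the filter on dim probes and were among the 15785 genes tested. RNA came from the blood of male C57BL/6J mice that carried the genotype label Gadd45aKO or Gadd45aWT and received 7 Gy of x-rays or 0 Gy, and cardiac blood was taken 24 h later. There were 9 one-colour Agilent arrays of Gadd45aKO at 7 Gy, 5 of Gadd45aWT at 7 Gy, 5 of Gadd45aKO at 0 Gy and 5 of Gadd45aWT at 0 Gy. Gadd45a encodes a stress protein induced by DNA damage, and the series asks how its loss bears on blood tests for radiation dose. The labels do not say how the Gadd45a allele was disrupted, how old the mice were, or which animal lies behind an array. A level below is the log2 processed signal minus the 75th percentile of that array, so only levels of the same probe can be compared.

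Monocytes leave the bone marrow as classical cells, which need Ccr2 to enter the blood and are drawn into inflamed tissue. Some convert into patrolling monocytes, which crawl along vessel walls, depend on the nuclear receptor Nr4a1 and carry high Cx3cr1 and Treml4. Csf1r, the receptor for the growth factors CSF1 and IL-34, keeps monocytes and macrophages alive. Adgre1, known as F4/80, marks mature mouse macrophages. Cd14 passes bacterial lipopolysaccharide to Tlr4, Itgam (CD11b) pairs with Itgb2 into an adhesion and complement receptor, and Lyz1 and Lyz2 encode lysozymes that cut bacterial cell walls. Several of these genes are not private to the lineage: neutrophils carry Itgam and Lyz2, and natural killer (NK) cells carry Itgam and Cx3cr1. In whole blood, fewer cells of a type and less RNA per cell cannot be told apart.

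Between 25.6% and 50.9% of probes were well above background on KO-labelled 7 Gy arrays, 39.2% to 45.8% on WT 7 Gy, 26.1% to 48.1% on KO-labelled 0 Gy and 36.8% to 48.8% on WT 0 Gy arrays. KO-labelled 0 Gy replicates 1 and 4 differed by less than repeat spots within an array (ratio 0.941) and were counted once, so n = 4 in that group. The probe for Gadd45a did not separate the genotypes at 0 Gy (−0.15 ± 0.21, SE; limma adjusted p = 0.853) and was higher in KO-labelled arrays than in WT at 7 Gy by 1.21 ± 0.17 (limma adjusted p = 4.76e-05). The mice are therefore called KO-labelled, and the probe's place relative to any deletion is not given in the labels. Of 6 slides, 5 held 1 array of each group, and the remaining slide held KO-labelled 7 Gy replicates 6 to 9 alone. The median change of all genes in the KO-labelled response moved with the scaling of the arrays. It was −0.26 with the scaling used here and 0.07 with the 75th percentile over all probes. The share of calls that were higher was 26.3% and 46.7% in these. In the authors' value table, where 12000 genes were tested and not 15785, the median was 0.25 and the share 48.0%.

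The sequences printed here were taken from RefSeq windows before the transcription start (build GRCm38.p6), which were found for 7 of the members, and from the array files. Lyz1 and Lyz2 lie side by side on chromosome 10, and both were higher after 7 Gy in KO-labelled arrays. Nr4a1, on chromosome 15, was lower after 7 Gy in both genotypes. The 250 bases before each start are printed 5′ to 3′ on the gene's own strand. Capitals mark AGGAAGT, the letters of a binding motif of the myeloid factor PU.1, in the lysozyme genes, and TGACG, a half-site of the cyclic AMP response element, in Nr4a1, each on either strand (ACTTCCT and CGTCA on the other). The windows are chr10:117292869-117293118 (minus strand) for Lyz1, chr10:117282273-117282522 (minus strand) for Lyz2 and chr15:101266596-101266845 (plus strand) for Nr4a1.
Lyz1: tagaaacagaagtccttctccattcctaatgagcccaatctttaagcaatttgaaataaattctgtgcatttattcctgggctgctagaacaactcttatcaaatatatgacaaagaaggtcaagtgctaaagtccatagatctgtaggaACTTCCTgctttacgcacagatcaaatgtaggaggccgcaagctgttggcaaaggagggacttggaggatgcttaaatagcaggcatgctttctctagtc
Lyz2: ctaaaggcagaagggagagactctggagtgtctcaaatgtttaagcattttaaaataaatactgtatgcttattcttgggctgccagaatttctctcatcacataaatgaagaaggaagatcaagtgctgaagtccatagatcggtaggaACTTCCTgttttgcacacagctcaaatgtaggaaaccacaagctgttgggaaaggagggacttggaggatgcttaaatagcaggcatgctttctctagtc
Nr4a1: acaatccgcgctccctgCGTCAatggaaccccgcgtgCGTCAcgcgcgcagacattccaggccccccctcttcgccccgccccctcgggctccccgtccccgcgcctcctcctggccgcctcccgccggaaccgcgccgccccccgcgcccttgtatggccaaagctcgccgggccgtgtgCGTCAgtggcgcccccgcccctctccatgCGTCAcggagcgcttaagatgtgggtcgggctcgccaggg

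The lysozyme windows were identical at 92 of the 100 bases next to the start and at 152 of all 250, and AGGAAGT began 100 bases before the start in both. It stood in 7.69% of the 32851 RefSeq windows of this length and in none of the other 5 member windows. The Nr4a1 window held TGACG 4 times, beginning 233, 213, 69 and 40 bases before the start. At least 1 copy stood in 17.8% of all windows and 4 or more in 0.137%, and no other member window held it. GAGGAA stood in 23.3% of all windows and had 2 matches each in those of Itgam and Treml4, a number that 3.54% of windows reached. A match describes the letters and is not evidence of a bound factor.

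After 7 Gy the 10 genes did not move as a block. In KO-labelled mice Cx3cr1, Ccr2, Nr4a1 and Treml4 fell, while Cd14, Adgre1, Itgam, Lyz1 and Lyz2 rose and Csf1r was not called. In WT mice Cx3cr1, Ccr2 and Nr4a1 fell and Cd14 and Adgre1 rose. The KO-labelled response thus had 9 members called, 5 higher and 4 lower, where 46.9% of all genes tested were called (12.4% higher and 34.6% lower; limma, Benjamini-Hochberg adjusted p under 0.05). The WT response had 5 members called, 2 higher and 3 lower, against 23.6% of all genes (10% higher and 13.6% lower). The median log2 change of the members was 0.42 in KO-labelled arrays and 0.03 in WT, beside −0.26 and −0.05 over all genes. Every one of these calls had the same sign on each of the 5 slides that held both groups, and with slide as a block 9 and 5 members were called. Both of these checks kept the near-duplicate KO-labelled arrays, otherwise counted once, as separate arrays on separate slides.

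**Figure D1:**
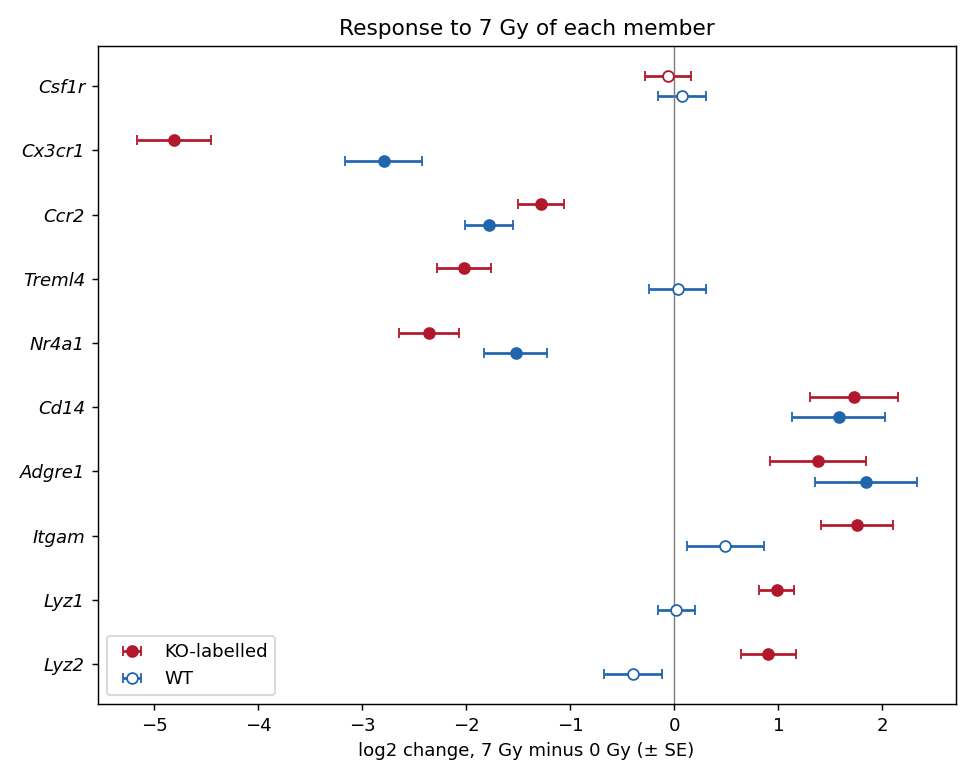
The log2 change at 7 Gy relative to 0 Gy is on the x axis for each of the 10 members (bars, SE), with KO-labelled arrays above WT for each gene; filled points passed a limma adjusted p under 0.05. Cx3cr1, Ccr2 and Nr4a1 lie left of 0 and Cd14 and Adgre1 right of 0 in both genotypes, while filled points for Treml4, Itgam, Lyz1 and Lyz2 occur in KO-labelled arrays only.

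Csf1r, the survival receptor of the lineage, showed no difference in any comparison. It lay between 0.42 and 1.90 (median 1.11) in KO-labelled 7 Gy arrays, against 0.64, 1.40, 0.98, 0.68 and 1.80 in KO-labelled 0 Gy arrays. WT arrays read 1.22, 1.14, 1.21, 1.05 and 1.24 at 7 Gy and 1.5, 1.06, 1.03, 0.83 and 1.07 at 0 Gy. The 4 groups overlapped throughout. The change was −0.06 ± 0.22 in KO-labelled arrays (SE; limma adjusted p = 0.84; 95% interval −0.52 to 0.40) and 0.07 ± 0.23 in WT (adjusted p = 0.888; −0.41 to 0.56). Neither of the other probes of the gene, at transcript bases 1841 and 2871, was called in any comparison. A p above the threshold does not show that the level was the same.

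Cx3cr1, the receptor for fractalkine, had the largest fall of the 10 genes in both genotypes. Its brightest probe, at transcript base 3683 (chr9:119957811-119957870 in mm9, minus strand), lay between −7.78 and −5.61 (median −6.99) in KO-labelled 7 Gy arrays, against −2.29, −1.72, −2.63, −2.35 and −1.46 at 0 Gy. The corresponding WT values were −4.10, −4.07, −4.87, −5.64 and −5.13 at 7 Gy and −2.32, −1.94, −1.94, −1.91 and −1.71 at 0 Gy. No 7 Gy array reached the 0 Gy range of its genotype. Only 2 of 9 KO-labelled 7 Gy arrays were well above background for this probe, against 5 of 5 in each other group, so the size of the KO-labelled change was read mostly from spots near background. The receptor fell by 4.82 ± 0.36 on the log2 scale in KO-labelled arrays (limma adjusted p = 1.12e-09) and by 2.80 ± 0.37 in WT (6.95-fold lower; adjusted p = 6.28e-06). At 7 Gy it was lower in KO-labelled arrays than in WT by −2.09 ± 0.33 (adjusted p = 0.000116), and the 2 ranges met at their edges, with a KO-labelled maximum of −5.61 and a WT minimum of −5.64. The responses differed by −2.02 ± 0.52 (adjusted p = 0.0131), with the same sign on 5 of 5 slides.

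The Cx3cr1 difference between genotypes rests on the same dim spots. A second probe, which starts at base 3688, shares 55 bases with the first and is no independent reading of it. It was well above background on 1 of 9 KO-labelled and 5 of 5 WT arrays at 7 Gy, with changes of −4.99 ± 0.40 in KO-labelled arrays and −3.12 ± 0.42 in WT. The third probe, at base 2476 (chr9:119959018-119959077 in mm9), was well above background on 0 of 9 KO-labelled and 0 of 5 WT arrays at 7 Gy, against 4 of 5 KO-labelled and 5 of 5 WT arrays at 0 Gy. Set against the lowest signal called well above background on each array, it was at least 4.29-fold lower after 7 Gy in KO-labelled arrays. In WT it was at least 5.92-fold lower. These bounds were not tested. The measured changes, which use the dim readings, were −3.75 ± 0.40 in KO-labelled arrays (limma adjusted p = 1.93e-07) and −3.33 ± 0.42 in WT (adjusted p = 3.13e-06). With no 7 Gy array of either genotype well above background, the probe cannot compare the genotypes. On the brightest probe the difference between responses was no longer called under median scaling (−1.73; limma adjusted p = 0.259), quantile normalization (−2.18; 0.0631), normexp background correction (−0.35; 0.337) or the authors' value table (−0.91; 0.33). That call was also lost without arrays with noisy repeat spots (−1.71; 0.0585) and with close arrays averaged (−1.95; 0.104). At 7 Gy the gap between genotypes was not called in the authors' value table (−0.99; 0.0835).

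**Figure D2:**
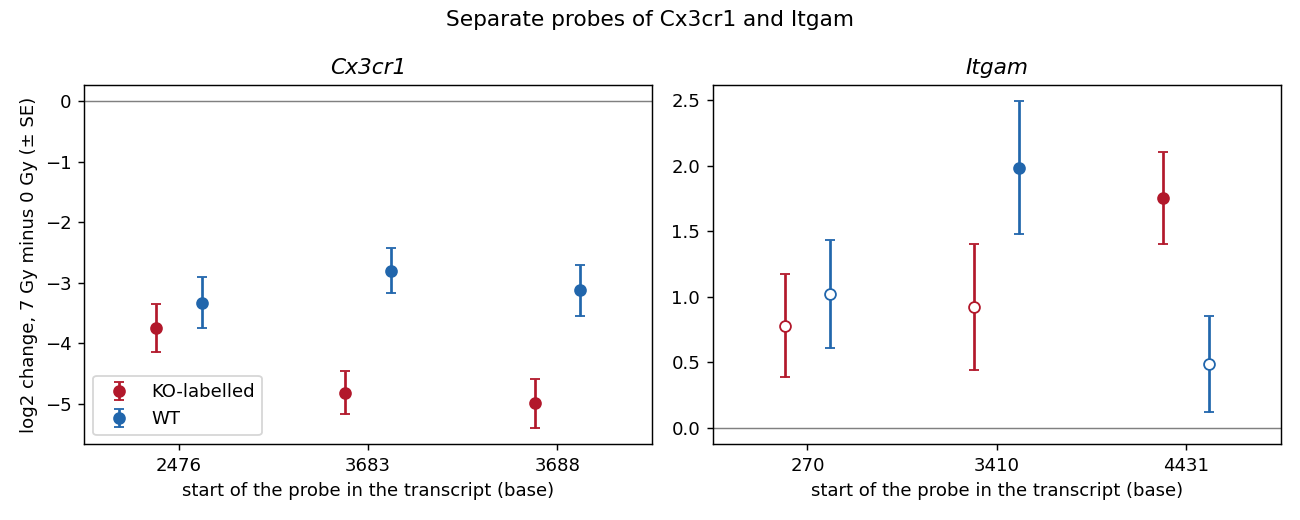
The log2 change at 7 Gy relative to 0 Gy (y axis; bars, SE) is shown for the 3 probes of Cx3cr1 and the 3 of Itgam by their start in the transcript (x axis), with KO-labelled arrays left of WT; filled points passed a limma adjusted p under 0.05. All Cx3cr1 probes fell in both genotypes, and of the Itgam probes the one at 4431 was called in KO-labelled arrays, the one at 3410 in WT and the one at 270 in neither.

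Ccr2, the receptor that lets classical monocytes leave the marrow, also fell in both genotypes. It lay between −4.12 and −2.98 (median −3.82) in KO-labelled 7 Gy arrays, against −2.60, −2.12, −2.56, −2.68 and −2.0 at 0 Gy. In WT it read −2.79, −2.69, −3.25, −3.20 and −3.22 at 7 Gy and −1.39, −1.19, −1.20, −1.31 and −1.13 at 0 Gy. The doses did not overlap in either genotype, as was true of 24.5% of all genes in KO-labelled arrays and 28.5% in WT. The fall was 2.44-fold in KO-labelled arrays (−1.29 ± 0.22; limma adjusted p = 5.58e-05) and 3.45-fold in WT (−1.79 ± 0.23; adjusted p = 3.84e-06). The responses differed by 0.50 ± 0.32 (adjusted p = 0.294).

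Ccr2 was the member with the clearest gap between genotypes without irradiation, although it was not called. All 5 KO-labelled 0 Gy arrays lay below all 5 WT arrays, by −1.09 ± 0.24 (limma adjusted p = 0.0614). The gap ran from −1.37 to −0.87 within the 5 slides and was called with slide as a block (−1.15; adjusted p = 0.0178) and under 8 of the other 15 alternatives. The slide-block fit kept the near-duplicate KO-labelled arrays separate. Keeping them separate without a block also gave a call (−1.15; limma adjusted p = 0.0159). At 7 Gy Ccr2 was lower in KO-labelled arrays by −0.59 ± 0.20 (adjusted p = 0.0415), but the groups overlapped and the call was lost when any 1 of 12 arrays was left out (adjusted p up to 0.114).

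Nr4a1, the nuclear receptor on which patrolling monocytes depend and also an early response gene of stimulated T and B cells, fell in both genotypes. KO-labelled 7 Gy arrays lay between −4.91 and −2.77 (median −3.38), against −1.39, −0.44, −1.62, −1.45 and −0.69 in KO-labelled 0 Gy arrays. WT arrays were at −2.24, −2.47, −2.88, −2.90 and −2.73 after 7 Gy and −1.37, −1.08, −1.06, −1.11 and −0.98 at 0 Gy. Doses did not overlap in either genotype. The change was −2.36 ± 0.29 (5.14-fold lower; limma adjusted p = 9.89e-07) in KO-labelled arrays and −1.52 ± 0.30 (2.88-fold lower; adjusted p = 0.00065) in WT. The WT call was lost without the 3 WT 7 Gy arrays highest in hepatocyte genes (−1.24; adjusted p = 0.0685). At 7 Gy the gene was lower in KO-labelled arrays than in WT by −0.76 ± 0.27 (adjusted p = 0.0429), a call lost with slide as a block (0.0778) and when any 1 of 14 arrays was left out. The responses differed by −0.84 ± 0.42 (adjusted p = 0.172).

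Treml4, a receptor of the TREM family found on patrolling monocytes and some splenic macrophages and dendritic cells, fell in KO-labelled mice and was not called in WT. Its probe (chr17:48413947-48414006 in mm9) lay between −8.25 and −6.84 (median −7.69) in KO-labelled 7 Gy arrays, against −5.62, −6.02, −5.67, −5.64 and −4.61 at 0 Gy. WT arrays read −6.19, −6.17, −6.03, −6.13 and −6.13 at 7 Gy and −5.75, −6.33, −6.49, −6.25 and −6.00 at 0 Gy. Every KO-labelled 7 Gy array lay below every array of the other 3 groups. The probe was well above background on 2 of 9 KO-labelled and 5 of 5 WT arrays at 7 Gy, and on 4 of 5 arrays of each genotype at 0 Gy, so the sizes that use the KO-labelled 7 Gy group were read mostly from spots near background. The change was −2.03 ± 0.26 in KO-labelled arrays (limma adjusted p = 2.16e-06) and 0.03 ± 0.28 in WT (adjusted p = 0.961; 95% interval −0.54 to 0.60). At 7 Gy the KO-labelled level was lower than WT by −1.38 ± 0.24 (adjusted p = 0.000324) without overlap, which held for 6.04% of all genes. The responses differed by −2.06 ± 0.38 (adjusted p = 0.0023), with the same sign on 5 of 5 slides.

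The Treml4 calls changed with the treatment of dim spots. With normexp background correction, which adds an offset that shrinks the changes of dim spots, the KO-labelled change was −0.23 (limma adjusted p = 0.0606) and the gap at 7 Gy −0.15 (0.275). The difference between responses was also not called under median scaling (−1.77; 0.213), quantile normalization (−1.81; 0.115) or with close arrays averaged (−1.86; 0.0536).

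**Figure D3:**
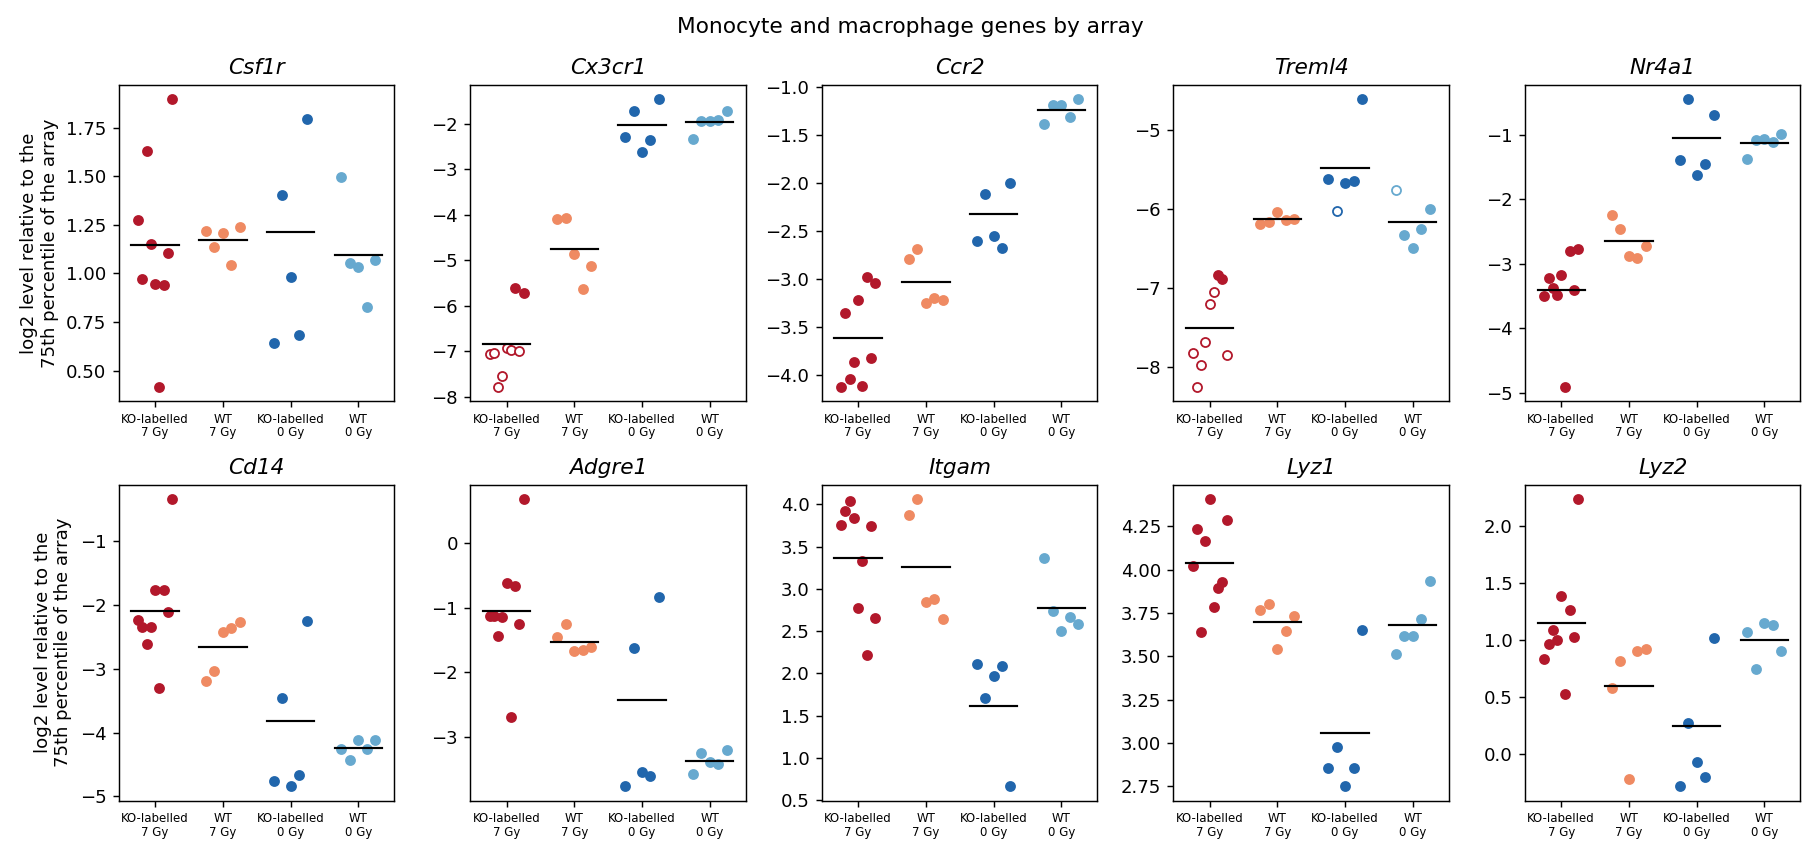
Each of the 24 arrays is a point in 10 panels, 1 per gene, with the log2 level relative to the array's 75th percentile on the y axis, the 4 groups on the x axis and a line at the group mean; open points were not well above background. KO-labelled 7 Gy arrays sit lowest for Cx3cr1 and Treml4, both 7 Gy groups sit above WT 0 Gy for Cd14 and Adgre1, and KO-labelled 0 Gy replicates 2 and 5 stand above the other arrays of their group for Cd14 and Adgre1.

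Cd14, the co-receptor for lipopolysaccharide, rose in both genotypes. KO-labelled 7 Gy arrays lay between −3.31 and −0.34 (median −2.24), against −4.77, −3.46, −4.84, −4.67 and −2.25 at 0 Gy. WT arrays read −3.19, −3.04, −2.42, −2.36 and −2.27 at 7 Gy and −4.26, −4.43, −4.12, −4.26 and −4.11 at 0 Gy. In WT the doses did not overlap, and in KO-labelled arrays 0 Gy replicate 5 lay inside the 7 Gy range. The rise was 1.73 ± 0.42 in KO-labelled arrays (3.32-fold; limma adjusted p = 0.00186) and 1.58 ± 0.45 in WT (2.99-fold; adjusted p = 0.0121), and the responses differed by 0.15 ± 0.62 (adjusted p = 0.888).

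Adgre1, the mature macrophage marker F4/80, rose beside Cd14. Its brighter probe, at base 3160 (chr17:57622868-57622927 in mm9), lay between −2.70 and 0.68 (median −1.13) in KO-labelled 7 Gy arrays, against −3.77, −1.63, −3.55, −3.61 and −0.83 at 0 Gy. In WT the values were −1.46, −1.26, −1.67, −1.65 and −1.62 at 7 Gy and −3.58, −3.25, −3.39, −3.42 and −3.22 at 0 Gy. WT doses were far apart with a tight spread, whereas in KO-labelled arrays replicates 2 and 5 at 0 Gy reached the 7 Gy range. The rise was 1.38 ± 0.46 in KO-labelled arrays (2.60-fold; limma adjusted p = 0.0175) and 1.84 ± 0.49 in WT (3.58-fold; adjusted p = 0.00761). The second probe, at base 2732, gave 1.49 ± 0.48 and 1.64 ± 0.51, and the responses differed by −0.46 ± 0.67 (adjusted p = 0.67).

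Some of the Cd14 and Adgre1 calls depended on which arrays were kept and on the processing. Without KO-labelled 0 Gy replicate 3, the KO-labelled change of Adgre1 was no longer called (adjusted p = 0.0995). Without the 3 WT 7 Gy arrays highest in hepatocyte genes, the WT changes were 1.12 for Cd14 (adjusted p = 0.32) and 2.01 for Adgre1 (0.0747). The WT call of Cd14 was also lost under median scaling (1.44; limma adjusted p = 0.0616). With close arrays averaged, the WT calls of Cd14 (1.62; 0.127) and Adgre1 (1.84; 0.117) were lost. The KO-labelled call of Adgre1 was lost with only the groups compared (1.38; 0.0715). After the group means were taken off, Cd14 and Adgre1 went together over the 23 array units (Pearson r = 0.91), which share their arrays and their scaling.

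Itgam, the CD11b integrin chain, rose in one genotype or the other depending on the probe. The brightest probe, at base 4431 (chr7:135261755-135261814 in mm9, plus strand), stood for the gene. It lay between 2.22 and 4.04 (median 3.74) in KO-labelled 7 Gy arrays, against 2.11, 1.71, 1.96, 2.09 and 0.66 at 0 Gy, and the change was 1.76 ± 0.35 (3.38-fold higher; limma adjusted p = 0.000281). WT arrays read 3.87, 4.06, 2.84, 2.87 and 2.65 at 7 Gy and 3.36, 2.74, 2.5, 2.66 and 2.59 at 0 Gy, a change of 0.49 ± 0.37 (adjusted p = 0.392). That probe carries a run of 20 bases of alternating C and A, in capitals in this part of it.
Itgam: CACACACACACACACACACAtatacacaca

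Neither of the other Itgam probes has an alternating run above 5 bases, and on both the KO-labelled change was the smaller one. At base 3410 (chr7:135260275-135260334 in mm9) the change was 0.92 ± 0.48 in KO-labelled arrays (limma adjusted p = 0.123) and 1.99 ± 0.51 in WT (adjusted p = 0.00574), and the responses differed by −1.07 ± 0.70 (adjusted p = 0.309). At base 270 it was 0.78 ± 0.39 (adjusted p = 0.111) and 1.02 ± 0.41 (adjusted p = 0.0819), with 4 of 9 KO-labelled and 3 of 5 WT arrays well above background at 7 Gy. With the 3 probes averaged, the WT change was 1.17 (adjusted p = 0.000661). In the authors' value table the KO-labelled change was 1.13 (0.0754) and the WT change 2.02 (0.0079). The part of the repeat in these readings was not tested.

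Lyz2, the lysozyme gene of macrophages and granulocytes, and its neighbour Lyz1, known chiefly from Paneth cells of the gut, rose in KO-labelled mice. For Lyz1, KO-labelled 7 Gy arrays lay between 3.64 and 4.41 (median 4.02), against 2.85, 2.98, 2.75, 2.86 and 3.65 at 0 Gy. WT arrays were at 3.77, 3.80, 3.54, 3.65 and 3.73 after 7 Gy and 3.51, 3.62, 3.62, 3.72 and 3.93 at 0 Gy. Replicate 5 was the 1 KO-labelled 0 Gy array inside the 7 Gy range. The change was 0.98 ± 0.17 in KO-labelled arrays (1.97-fold higher; limma adjusted p = 5.41e-05) and 0.02 ± 0.18 in WT (adjusted p = 0.969; 95% interval −0.35 to 0.38). The responses differed by 0.96 ± 0.24 (adjusted p = 0.012).

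For Lyz2, KO-labelled 7 Gy arrays lay between 0.53 and 2.24 (median 1.03), against −0.28, 0.28, −0.07, −0.19 and 1.02 at 0 Gy. WT arrays read 0.58, 0.82, −0.21, 0.91 and 0.92 at 7 Gy and 1.08, 0.75, 1.15, 1.13 and 0.91 at 0 Gy. The doses overlapped in both genotypes, with KO-labelled 0 Gy replicate 5 again high. The change was 0.90 ± 0.27 in KO-labelled arrays (1.87-fold higher; limma adjusted p = 0.00756) and −0.40 ± 0.28 in WT (adjusted p = 0.351), a difference of 1.3 ± 0.39 (adjusted p = 0.0272). Leaving out KO-labelled 0 Gy replicate 3 or WT 7 Gy replicate 3 ended the call on that difference (adjusted p up to 0.0545).

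Neither lysozyme gene was called between the genotypes at either dose. At 0 Gy, Lyz1 was lower in KO-labelled arrays than in WT by −0.62 ± 0.19 (limma adjusted p = 0.221) and Lyz2 by −0.75 ± 0.30 (adjusted p = 0.413). At 7 Gy, Lyz1 was 0.34 ± 0.15 above WT (adjusted p = 0.119) and Lyz2 0.55 ± 0.25 (adjusted p = 0.119). With slide as a block the Lyz1 gaps were called at 0 Gy (−0.66; 0.0471) and at 7 Gy (0.40; 0.0391). That fit kept the near-duplicate KO-labelled arrays, otherwise counted once, separate. The genes are close paralogs, and whether the Lyz2 probe, at base 94 of its transcript, also binds Lyz1 was not tested. Whether the Lyz1 probe, at base 1194, also binds Lyz2 was not tested either, so the lysozyme probes may not be independent readings.

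Between genotypes at 7 Gy, 4 members were called, Cx3cr1, Treml4, Nr4a1 and Ccr2, all lower in KO-labelled arrays, where 22.4% of all genes were called (4.58% higher and 17.8% lower). Only Cx3cr1, Treml4 and Nr4a1 had the same sign on all 5 slides, and the split moved to 2 higher (Lyz1 and Lyz2) and 2 lower when arrays were scaled by the percentile of all probes. At 0 Gy no member was called by limma, with 5 members and 9.33% of all genes at an unadjusted p under 0.05, and 0.291% of all genes were called (0.209% higher and 0.0824% lower). Ccr2 and Itgam had genotype groups that did not overlap at 0 Gy, as did 10.6% of all genes. The responses differed for 4 members, Cx3cr1 and Treml4 with a negative and Lyz1 and Lyz2 with a positive difference, against 15.1% of all genes (3.19% higher and 11.9% lower). None of these 4 was called under median scaling, quantile normalization or normexp, and neither were Cx3cr1, Lyz1 and Lyz2 in the authors' value table, which was not used for Treml4. Each of the 4 kept its sign under these settings. For Itgam the difference was 1.27 ± 0.51 (adjusted p = 0.0918), was called with slide as a block (1.47; 0.0114), and was −0.89 in the authors' value table. The slide-block fit kept the near-duplicate KO-labelled arrays, otherwise counted once, separate.

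**Figure D4:**
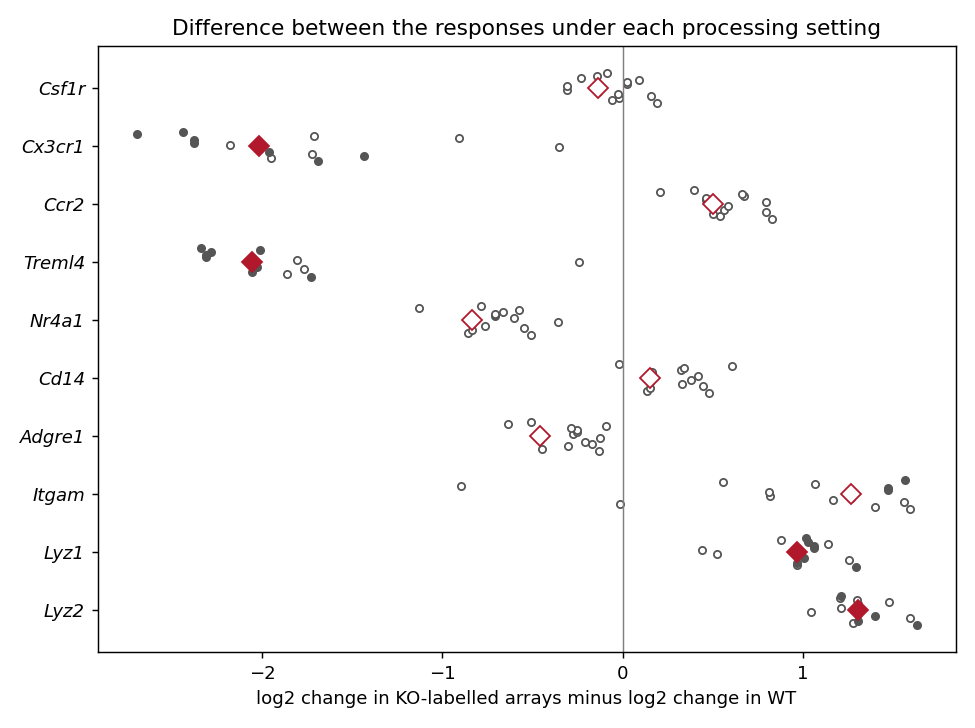
The KO-labelled change minus the WT change (x axis, log2) is shown for each member with the values used here (diamonds) and under each other processing setting (circles); filled symbols passed a limma adjusted p under 0.05. Cx3cr1 and Treml4 stay left of 0 and Lyz1 and Lyz2 right of it, with open circles for each, while Itgam falls on both sides.

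Of 18 other patrolling monocyte genes tested, 1 was higher, 10 were lower and 7 were not called in KO-labelled arrays (median −1.08). Over all genes, 12.4% were higher and 34.6% lower there, with a median of −0.26. In WT, 4 of the 18 were higher and 4 lower (median 0.16), beside 10% of all genes higher, 13.6% lower and a median of −0.05. Ear2, an eosinophil-type ribonuclease, fell by 3.46 ± 0.29 in KO-labelled arrays (limma adjusted p = 5.83e-09), Cd300e by 2.79 ± 0.34, the B cell and monocyte factor Pou2f2 by 2.74 ± 0.43, and the CD11c integrin Itgax by 2.28 ± 0.30. In WT the scavenger receptor Cd36 fell by 3.02 ± 0.25 (adjusted p = 1.04e-08) and Tgm2 rose by 1.84 ± 0.27. Ace, a defining marker, was not called, at −1.02 in KO-labelled arrays (adjusted p = 0.0871) and −0.47 in WT (0.586). The responses differed for 9 of the 18, 1 higher and 8 lower, beside 3.19% of all genes higher and 11.9% lower.

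Of 12 classical monocyte genes tested, 1 was higher and 4 lower in KO-labelled arrays (median −0.30) and 1 was higher and 3 lower in WT (median −0.23). Over all genes, 12.4% were higher and 34.6% lower in KO-labelled arrays (median −0.26), and 10% higher and 13.6% lower in WT (median −0.05). The same shares stand beside the counts of the other lists. Plac8 fell by 1.78 ± 0.19 in KO-labelled arrays, and the secreted lectin Chil3 fell by 2.01 ± 0.46 there and by 3.15 ± 0.48 in WT. Fn1, fibronectin, rose by 1.93 ± 0.51 and 1.66 ± 0.54. Ly6c2 was not matched to a probe by name. Among 12 lineage transcription factors tested, 2 were higher and 3 lower in KO-labelled arrays and 2 higher and 2 lower in WT. Irf8, which directs monocyte fate, fell by 2.53 ± 0.30 in KO-labelled arrays (limma adjusted p = 6.35e-07) and by 2.72 ± 0.31 in WT (adjusted p = 8.33e-07). Of 9 ligands and partners of the members tested, 3 were higher and 1 lower in KO-labelled arrays and 2 were higher in WT, and Lbp, the plasma protein that hands lipopolysaccharide to Cd14, rose by 3.35 ± 0.64 and 2.62 ± 0.67. Itgb2, the partner of Itgam, rose by 0.68 in both (adjusted p = 0.0101 and 0.027).

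Markers of tissue macrophages moved in the same direction as Cd14 and Adgre1. Of 15 tested, 11 were higher and 2 lower in KO-labelled arrays (median 2.39) and 12 were higher and none lower in WT (median 2.63). The scavenger receptor Marco rose by 5.21 ± 0.82 in KO-labelled arrays and by 4.53 ± 0.86 in WT (limma adjusted p = 2.31e-05 and 0.000439), and the complement receptor Vsig4 rose by 3.91 ± 0.77 and 3.92 ± 0.81. Clec4f, the defining marker of Kupffer cells, was not called in KO-labelled arrays (0.58; adjusted p = 0.478), with 3 of 9 arrays well above background at 7 Gy, and rose by 3.05 in WT (adjusted p = 0.00177). The mean level of the list ran from −4.28 to −1.95 in KO-labelled arrays at 7 Gy, from −3.03 to −2.83 in WT at 7 Gy, from −6.35 to −3.12 in KO-labelled units at 0 Gy and from −5.55 to −5.24 in WT at 0 Gy. The highest KO-labelled 0 Gy arrays were replicates 5 (−3.12) and 2 (−4.12), the same arrays that were high for Cd14 and Adgre1.

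**Figure D5:**
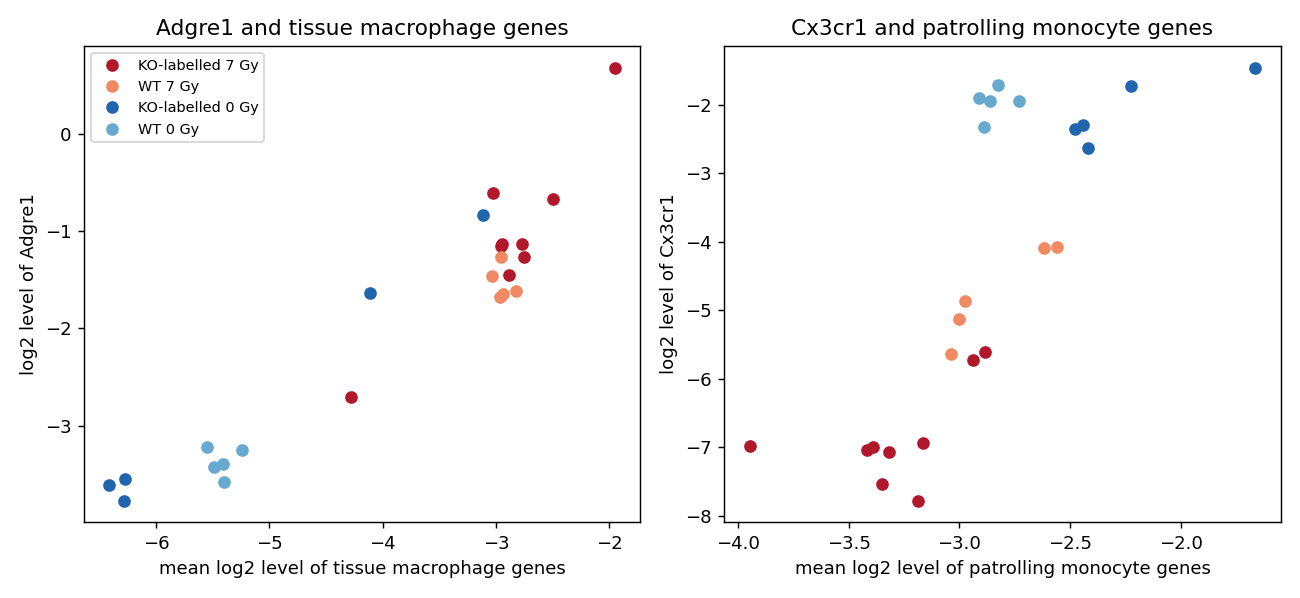
Each of the 24 arrays is a point. The left panel sets the log2 level of Adgre1 (y) against the mean log2 level of 15 tissue macrophage genes (x), and the right panel sets Cx3cr1 against 18 patrolling monocyte genes; on the left, KO-labelled 0 Gy replicates 2 and 5 stand apart from the other 0 Gy arrays, toward the 7 Gy arrays.

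Hepatocyte genes rose in the same arrays, 12 of 16 in KO-labelled arrays and 15 of 16 in WT, and their mean level ran from −4.19 to −2.14 in KO-labelled 7 Gy arrays, from −2.28 to 1.43 in WT 7 Gy arrays, from −6.76 to −3.43 in KO-labelled 0 Gy units and from −6.47 to −6.01 in WT 0 Gy arrays. The KO-labelled 0 Gy arrays highest in hepatocyte genes were again replicates 5 (−3.43) and 2 (−4.34), against −6.74, −6.24 and −6.78 in replicates 1, 3 and 4. The WT 7 Gy arrays fell into separate sets, with replicates 1 and 2 both at −2.28 and replicates 3 to 5 at 1.43, 1.43 and 1.40. Means of that group therefore join arrays of unlike hepatocyte level. Albumin (Alb) was well above background on 9 of 9 and 5 of 5 arrays at 7 Gy and on 2 of 5 and 0 of 5 at 0 Gy, KO-labelled and WT. The part of hepatocyte genes in the results for Cd14, Adgre1, Fn1 and Lbp was not tested. Of 19 neutrophil genes, 2 were higher and 7 lower in KO-labelled arrays, 3 higher and 1 lower in WT, and 12 lower and 1 higher in KO-labelled arrays than in WT at 7 Gy. Over all genes, 12.4% were higher and 34.6% lower in KO-labelled arrays, and 10% higher and 13.6% lower in WT. Between the genotypes at 7 Gy, 17.8% of all genes were lower and 4.58% higher in KO-labelled arrays. The mean level of the neutrophil genes split the WT 7 Gy arrays in the same way as the hepatocyte genes. It was −2.13 and −1.97 in replicates 1 and 2 and −0.86, −0.88 and −0.93 in replicates 3 to 5. In KO-labelled 7 Gy arrays it ran from −2.95 to −1.97. S100a8, the defining neutrophil marker, fell by 1.74 in KO-labelled arrays (limma adjusted p = 0.00039). NK cell genes, which share Cx3cr1, counted 2 higher and 5 lower of 11 in KO-labelled arrays and 4 higher and none lower in WT. At 7 Gy, 9 of the 11 were lower and none higher in KO-labelled arrays than in WT (median −1.05). The responses differed for 8 of the 11, all lower (median −1.47), beside 3.19% of all genes higher and 11.9% lower. Ncr1, the defining NK receptor, fell by 1.04 in KO-labelled arrays (limma adjusted p = 0.00513). All 10 B cell genes fell in both genotypes, with Cd79a at −5.18 and −4.05, and of 8 dendritic cell genes 4 fell in KO-labelled arrays and 2 in WT. The part of these cells in the changes of Cx3cr1, Nr4a1, Irf8, Itgam and the lysozymes was not tested.

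Over the 23 array units, the genes with the levels most like Csf1r were Nudc, Sun1 and Gmppa (Pearson r = 0.76, 0.75 and 0.75). Akna, Prex1 and AI451458 were the closest to Treml4 (r = 0.93, 0.93 and 0.92) and C1galt1c1, Rbks and Abracl the closest to Ccr2 (r = 0.93, 0.92 and 0.92). These values describe all 4 groups together, on arrays that share their scaling.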

How the data were processed

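The authors deposited the scanner output of each array, in which a spot's intensity was extracted with Agilent Feature Extraction 12.0.2, per the submitters' processing notes. The processed signal is background-subtracted within the array and not scaled between arrays. The authors' deposited value table holds log2 values of 12900 entries, 9 of them member probes. Its columns equalled the log2 processed signal after adding 1 number per array, between 0 and 1.54, above a floor, and 0 of them belonged to other samples. Coordinates are those of mm9 in the file headers.

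Spots of a probe were averaged, and the level was the log2 signal minus the 75th percentile, within the array, of the 7803 probes that all 24 arrays called well above background. Of 39429 probes, 19648 were well above background on at least 5 arrays, and the brightest of these stood for each of 15785 genes. Separate probes were tested in a fit over all 19648. Differences were tested in limma 3.58.1 (R 4.3.3) in 1 fit of 4 groups over 23 units, with Benjamini-Hochberg adjustment over all genes and calls at an adjusted p under 0.05. Within-slide differences and the fits with a slide or replicate block used all 24 arrays. There the near-duplicate KO-labelled arrays, otherwise counted once, were kept separate. Errors of changes are standard errors, and all p-values are two-sided. Arrays carry no depth beyond signal over background, and their number limits the precision. Since animals are not tied to arrays in the labels, p-values reflect only the variation among these samples, which may be technical. The fit was tested on simulated data.

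The members, the gene lists and the tests were chosen with earlier results of these data known. Every member and probe is reported, with up to 4 called genes of largest change per other list and 1 defining marker per cell type. Some genes that this rule names are not reported here. Alternatives changed the scaling, background correction, filter, probe rule, blocks and arrays. For the authors' value table a probe needed values on at least 20 arrays. Figures used Python 3.11.15, pandas 2.3.3, NumPy 2.4.6 and matplotlib 3.10.9. Some labels name another dye than Cy3, but every file held only a green channel, which was used.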

Additional observations from a re-analysis of the deposited data

Results flagged for a closer look

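Of the 40 sets made by 10 genes and 4 groups, 3 held 1 array far from the others of its group, and chance alone marks about 1 in 20 such sets. Lyz2 was at 2.24 in KO-labelled 7 Gy replicate 9, where the other 8 arrays lay between 0.53 and 1.39. Nr4a1 was at −4.91 in KO-labelled 7 Gy replicate 6, where the others lay between −3.49 and −2.77. Itgam was at 3.36 in WT 0 Gy replicate 1, where the others lay between 2.5 and 2.74, and repeat spots of that array varied by 17.1%.

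The response to 7 Gy differed between the genotypes, by the test of the difference itself, for Cx3cr1 (−2.02), Treml4 (−2.06), Lyz1 (0.96) and Lyz2 (1.3), each given as the KO-labelled change minus the WT change on the log2 scale. Each of these calls was lost under median scaling, quantile normalization and normexp background correction.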

How the results depend on the processing

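Across the alternatives, the 5 counts of called members moved unequally. In the KO-labelled response, 9 members were called and 7 to 9 under the alternatives, and 8 to 9 when 1 array was left out. In WT, 5 were called, 2 without WT 7 Gy replicates 3 to 5 (highest in hepatocyte genes), 3 with close arrays averaged, 6 under quantile normalization, normexp, averaged probes and the authors' value table, where Itgam was also called, and 5 whichever array was left out. Between genotypes at 7 Gy, 4 were called. That count was 2 under median scaling, quantile normalization, no filter on dim probes, only probes well above background on all arrays, without WT 7 Gy replicates 3 to 5, with only the groups compared and with close arrays averaged, 1 under normexp, 0 in the authors' value table, and 2 to 4 with 1 array left out. Between genotypes at 0 Gy, 0 were called, 1 under the all-probe percentile, quantile normalization, normexp, only probes well above background on all arrays, the near-duplicate arrays kept separate, only the groups compared and without the slide that held 1 group, 2 with slide as a block, and 0 to 1 with 1 array left out. The responses differed for 4 members, for 0 under median scaling, quantile normalization, normexp, the authors' value table and close arrays averaged, for 2 with no filter, only probes well above background on all arrays, without arrays with noisy repeat spots and without WT 7 Gy replicates 3 to 5, and for 3 to 5 with 1 array left out. With only probes well above background on all arrays, Cx3cr1 and Treml4 were not tested, and Treml4 was not tested in the authors' value table. The cause of the other shifts was not tested. Averaging close arrays and leaving out the slide of 1 group were chosen after seeing the data.

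Of 1975 values of single members under an alternative, 1861 kept their call, 86 lost it, 28 gained it and none changed sign while called. Calls over all genes ran from 6 (median scaling) to 6203 (replicate block) for the difference between responses, beside 2378, from 3863 to 10014 for the KO-labelled response (7405), from 1646 to 5461 for WT (3725), from 992 to 6810 at 7 Gy (3531) and from 1 to 297 at 0 Gy (46). With the replicate block, 9, 5, 5, 3 and 6 members were called in the 5 comparisons, in the order above. Arrays numbered 1 to 5 shared a slide with the same-numbered arrays of the other groups, so this block is also a block of slides. The slide block and the replicate block both kept the near-duplicate arrays separate. After the group means were removed, same-numbered arrays correlated on average by 0.07, 0.05, 0.52, 0.02 and 0.36 for numbers 1 to 5, with a lowest pair of −0.23, and 10 of 20 arrays were closest to their own number. Dim spots limit Cx3cr1 and Treml4 in KO-labelled 7 Gy arrays, where 7 of 9 arrays were not well above background.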
